A study of Homo sapiens with 4 samples.

Results

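The genes described here encode alpha and beta tubulin, the pair of proteins from which microtubules are built. They were chosen by name, as the genes of the count table whose Ensembl identifier maps to a set list of tubulin symbols, and all 10 were found among 58735 genes. There were 4 alpha genes (TUBA1A, TUBA1B, TUBA1C and TUBA4A) and 6 beta genes (TUBB, TUBB2A, TUBB2B, TUBB3, TUBB4B and TUBB6). The study sequenced mRNA of the triple-negative breast cancer cell lines MDA-MB-231 and SUM159 to find which genes respond to mebendazole (MBZ), a benzimidazole used against parasitic worms. Each line was cultured for 72 h with 1 μM MBZ or with the DMSO vehicle, which gave the groups MDA-MB-231 DMSO, MDA-MB-231 MBZ, SUM159 DMSO and SUM159 MBZ with 1 library each. Total counts were 24897586, 17143139, 18708179 and 18904501 in that order. No condition had a replicate, so differences have no replicate check, and 95% Clopper-Pearson intervals cover counting error only and compare the libraries rather than the conditions.

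Microtubules grow and shrink by gaining and losing alpha-beta dimers, and dividing cells build the mitotic spindle from them. Vertebrates carry several genes, called isotypes, for each subunit, whose proteins differ mostly in their acidic tails, and benzimidazoles such as MBZ bind beta tubulin and hinder assembly. Cells also control tubulin mRNA through the amount of unassembled dimer: when it is high, the factor TTC5 recognizes the first residues of a tubulin chain as it leaves the ribosome, and the mRNA being translated is degraded.

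The start of the coding sequence is shown because it encodes the stretch recognized in that autoregulation. The first 4 codons of the GENCODE canonical transcripts are given, with the fourth codon in capitals.
TUBA1B: atgcgtgagTGC
TUBA4A: atgcgtgaaTGC
TUBB: atgagggaaATC
TUBB2A: atgcgcgagATC
TUBB2B: atgcgtgagATC
TUBB3: atgagggagATC
TUBA1A and TUBA1C had the same 12 bases as TUBA1B, TUBB4B the same as TUBB, and TUBB6 the same as TUBB3. The fourth codon was TGC in all 4 alpha genes and ATC in all 6 beta genes.

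Promoters are shown for TUBA1B, TUBA1C, TUBB and TUBB4B, the 4 genes with the most tubulin reads in each library. All 10 genes matched the RefSeq promoter table (build GRCh38.p14), and where a gene had several entries the one nearest the start of the canonical transcript was used. Each entry holds the 300 bases around the start of transcription, and capitals mark every match, on either strand, to the 5 motifs searched, which are spelled out after the sequences. The sequences are TUBA1B chr12:49131346-49131645 minus strand, TUBA1C chr12:49264832-49265131 plus strand, TUBB chr6:30720102-30720401 plus strand and TUBB4B chr9:137241037-137241336 plus strand.
TUBA1B: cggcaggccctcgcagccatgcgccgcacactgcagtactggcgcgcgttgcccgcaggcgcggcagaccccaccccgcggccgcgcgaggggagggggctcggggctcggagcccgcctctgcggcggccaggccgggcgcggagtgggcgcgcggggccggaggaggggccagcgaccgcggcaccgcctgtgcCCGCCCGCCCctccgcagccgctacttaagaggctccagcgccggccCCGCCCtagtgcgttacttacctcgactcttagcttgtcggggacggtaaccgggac
TUBA1C: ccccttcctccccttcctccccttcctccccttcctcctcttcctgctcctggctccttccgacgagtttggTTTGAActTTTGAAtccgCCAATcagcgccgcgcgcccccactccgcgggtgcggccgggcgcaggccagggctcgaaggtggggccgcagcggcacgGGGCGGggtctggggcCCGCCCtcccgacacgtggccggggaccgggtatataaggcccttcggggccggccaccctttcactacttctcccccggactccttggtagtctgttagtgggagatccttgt
TUBB: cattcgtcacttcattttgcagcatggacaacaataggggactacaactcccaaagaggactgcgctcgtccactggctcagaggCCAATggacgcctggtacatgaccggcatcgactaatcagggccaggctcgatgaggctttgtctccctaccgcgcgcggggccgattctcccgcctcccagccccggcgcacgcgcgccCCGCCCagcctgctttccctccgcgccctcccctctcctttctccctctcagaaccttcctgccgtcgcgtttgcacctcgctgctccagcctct
TUBB4B: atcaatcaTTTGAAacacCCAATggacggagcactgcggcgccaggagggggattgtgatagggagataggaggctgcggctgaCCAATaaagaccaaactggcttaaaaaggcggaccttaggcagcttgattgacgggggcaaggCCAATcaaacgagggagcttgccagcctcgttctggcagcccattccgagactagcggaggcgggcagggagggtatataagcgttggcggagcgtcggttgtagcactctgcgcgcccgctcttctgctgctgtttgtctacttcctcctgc
CCAAT, the core of the box bound by NF-Y, was present in the promoters of 7 of the 10 genes and in 34.6% of all 35116 RefSeq promoters. TTTGAA, the letters of the cell cycle genes homology region found in many promoters of late cell cycle genes, was present in 2 (TUBA1C and TUBB4B) against 15.2%, and its variant TTCGAA in 1 (TUBB3) against 1.45%. GGGCGG, the core of the GC box, was present in 8 against 45.0%, and TATAAA in 1 (TUBB2A) against 11.5%. In TUBA1B, 2 of the GGGCGG matches overlap each other. These matches describe the letters in the windows and were not tested for binding.

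The cell line labels of the libraries were checked against breast markers, which do not test the DMSO or MBZ labels. The estrogen receptor gene ESR1 had 1, 0, 2 and 18 counts in MDA-MB-231 DMSO, MDA-MB-231 MBZ, SUM159 DMSO and SUM159 MBZ, and the progesterone receptor gene PGR had 0 in all 4, where a count of 0 allows a level of up to 0.120 to 0.175 CPM (the unit CPM scales a count to the size of its library). ERBB2 was present, with 1216 to 1996 counts. The mesenchymal gene VIM had 20703 to 54409 counts and the epithelial cadherin gene CDH1 0 to 12, and the neural cadherin gene CDH2 separated the lines, with 17 and 10 counts in MDA-MB-231 and 2102 and 1469 in SUM159. Summed over the 9 luminal genes, the level was 1733, 987, 954 and 841 CPM in the same order, here and below with TMM normalization over the 4 libraries, most of it KRT8, and over the 8 mesenchymal or basal genes it was 3779, 2692, 5199 and 3456 CPM, with VIM the most abundant. The basal keratin genes KRT5 and KRT14 had 0, 2, 13 and 8 counts and 2, 27, 13 and 48 counts. EPCAM, of the luminal list, had 144, 190, 6 and 9 counts. Hormone receptor genes were thus at or near 0 in both lines and VIM was among their abundant genes.

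The 10 tubulin genes together gave 0.598% of all counts in MDA-MB-231 DMSO, 0.241% in MDA-MB-231 MBZ, 0.148% in SUM159 DMSO and 0.291% in SUM159 MBZ. Summed, they reached 6406.5, 2172, 1673 and 2671 CPM, so MDA-MB-231 DMSO was the high library and SUM159 DMSO the low one, and the MBZ libraries lay between them. MBZ over DMSO, the summed level was 2.99-fold lower in MDA-MB-231 (log2 -1.58, interval -1.59 to -1.56) and 1.60-fold higher in SUM159 (log2 0.67, 0.65 to 0.70). In bulk RNA, fewer cells that express a gene and less of its RNA per cell cannot be told apart. With DMSO, the level in SUM159 was 3.83-fold below that in MDA-MB-231 (log2 -1.94), whereas with MBZ it was above it by log2 0.30. These comparisons share libraries, so a low SUM159 DMSO library enters both the difference between the lines and the change with MBZ.

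The number of genes past a fold of 1.5 differed in direction between the lines. In MDA-MB-231, 8 of the 10 tubulin genes were at least 1.5-fold lower with MBZ, as were 15.8% of the 15142 genes compared (those averaging 10 counts or more in the 2 libraries), and 0 were at least 1.5-fold higher, against 18.3%. In SUM159, 6 of 10 were at least 1.5-fold higher, against 21.5% of 15674 genes, and 1, TUBB2B, was at least 1.5-fold lower, against 21.7%. The 6 include TUBB3, with 32 and 131 counts in SUM159 DMSO and MBZ, most of whose reads may be missing for the reason given below. A pattern of at least 1.5-fold lower in MDA-MB-231 and 1.5-fold higher in SUM159 was found for 4 of 10 (TUBA1B, TUBA1C, TUBB4B and TUBB6) and for 3.12% of 13733 genes compared in both lines. The median log2 fold change of the 10 genes was -1.24 in MDA-MB-231 and 1.14 in SUM159, and that of all genes compared -0.02 and -0.03. Scaling by total counts in place of TMM raised the median of all genes by 0.27 and 0.30. All genes past the fold then split into 4408 higher and 1146 lower in MDA-MB-231, against 2765 and 2386 with TMM, and into 5135 higher and 2004 lower in SUM159, against 3376 and 3403. With that scaling 7 tubulin genes were lower and 0 higher in MDA-MB-231, and 7 were higher and 1 lower in SUM159. The pattern of opposite folds was then found for TUBA1B, TUBA1C, TUBA4A and TUBB4B, and for 2.17% of genes.

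Among the alpha genes, TUBA1B and TUBA1C are broadly expressed and supply much of the alpha tubulin of dividing cells. TUBA1B (ENSG00000123416) had 1263 CPM in MDA-MB-231 DMSO, 364 in MDA-MB-231 MBZ, 165 in SUM159 DMSO and 451 in SUM159 MBZ. Its level was thus high in MDA-MB-231 with DMSO, low in SUM159 with DMSO and between these in the MBZ libraries. The log2 fold change was -1.81 (-1.85 to -1.78) in MDA-MB-231, where 0.733% of the genes compared had a lower value, and 1.45 (1.39 to 1.51) in SUM159. TUBA1C (ENSG00000167553) had 702, 284, 183.5 and 360.3 CPM in the same order, with log2 fold changes of -1.32 (-1.37 to -1.28) and 0.97 (0.91 to 1.03). It repeated the order of TUBA1B over the 4 libraries.

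TUBA1A, the alpha isotype best known from developing neurons, and TUBA4A differed from these in SUM159. TUBA1A had 439.9, 203 and 119 CPM in MDA-MB-231 DMSO, MDA-MB-231 MBZ and SUM159 DMSO, and 135 in SUM159 MBZ. TUBA4A had 94.6, 41.7, 88.0 and 112 CPM. Both were lower with MBZ in MDA-MB-231, by log2 -1.13 (-1.18 to -1.08) and -1.20 (-1.32 to -1.08), while in SUM159 they stayed under a fold of 1.5, at log2 0.19 (0.10 to 0.27) and 0.35 (0.25 to 0.45), although with total counts TUBA4A was past the fold at 0.65. The levels of TUBA4A in the 2 DMSO libraries were also close, with a log2 ratio of -0.10 (-0.20 to -0.01) for SUM159 over MDA-MB-231, where that of TUBA1B was -2.93 (-2.99 to -2.88).

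Among the beta genes, TUBB encodes the class I isotype and TUBB4B the class IVb isotype, both made in most cell types. TUBB (ENSG00000196230) had 2583 CPM in MDA-MB-231 DMSO, 747 in MDA-MB-231 MBZ, 861 in SUM159 DMSO and 964 in SUM159 MBZ. One library, MDA-MB-231 DMSO, was high and the other 3 were within a narrow range. The log2 fold change was -1.81 (-1.83 to -1.78) in MDA-MB-231 and 0.16 (0.13 to 0.20) in SUM159, the smallest change of any of the 10 genes in that line. TUBB4B (ENSG00000188229) had 1170.4, 435 and 172 CPM in MDA-MB-231 DMSO, MDA-MB-231 MBZ and SUM159 DMSO, and 425 in SUM159 MBZ. Its log2 fold changes were -1.45 (-1.48 to -1.41) and 1.30 (1.24 to 1.37), and with MBZ its level in SUM159 over MDA-MB-231 was log2 -0.03 (-0.08 to 0.01), not distinguishable at this depth. In DMSO its level in SUM159 over MDA-MB-231 was log2 -2.77, closer to the -2.93 of TUBA1B than to the -1.59 of TUBB.

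**Figure D1:**
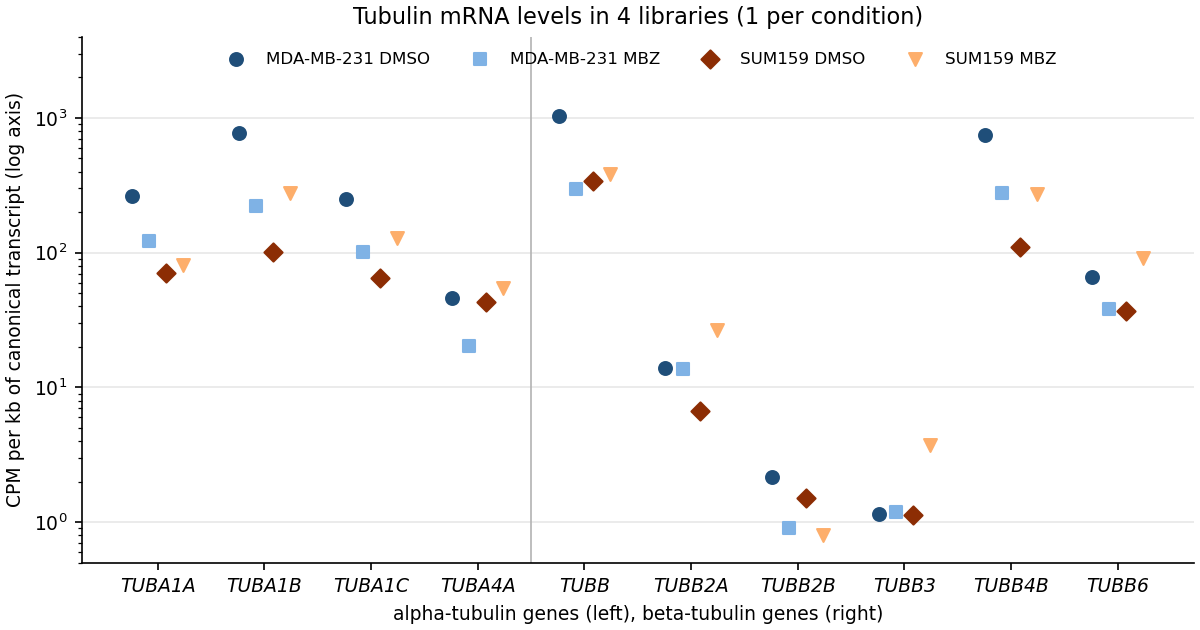
Levels of the 10 tubulin genes in the 4 libraries, as CPM per kilobase of the canonical transcript on a log axis, with 1 point per library. For TUBA1B, TUBA1C and TUBB4B the MDA-MB-231 DMSO point is highest and the SUM159 DMSO point lowest, whereas TUBB is high in MDA-MB-231 DMSO only. The TUBB3 points use the reads counted and do not give its level, since most of its reads may be missing.

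The other beta isotypes had fewer reads and behaved differently. TUBB6, the class V isotype, had 125 and 72.3 CPM in MDA-MB-231 DMSO and MBZ and 69.1 and 172 in SUM159 DMSO and MBZ. It was lower by log2 -0.80 (-0.90 to -0.71) in MDA-MB-231 and higher by 1.32 (1.22 to 1.41) in SUM159 (with total counts the first was -0.54, within the fold), which left SUM159 MBZ as its highest library. TUBB2A, a class II isotype, had 526, 419, 178 and 884 counts in the 4 libraries. In SUM159 it was 3.99-fold higher (log2 interval 1.76 to 2.24), the largest fold of the 10 genes, and in MDA-MB-231 its log2 fold change was -0.06 (-0.24 to 0.13), which turned to 0.21 when libraries were scaled by total counts. TUBB3, the class III isotype of neurons that is also found in many carcinomas, had 46, 39, 32 and 131 counts, from which most of its reads may be missing for the reason given below. The log2 fold change of the reads counted was 1.71 (1.15 to 2.32) in SUM159 and 0.03 (-0.62 to 0.68) in MDA-MB-231, where it was -0.02 with DESeq2 size factors and 0.30 with total counts. TUBB2B, the other class II isotype, had 97, 33, 48 and 32 counts and was lower with MBZ in both lines, by log2 -1.28 (-1.90 to -0.70) and -0.90 (-1.59 to -0.23).

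**Figure D2:**
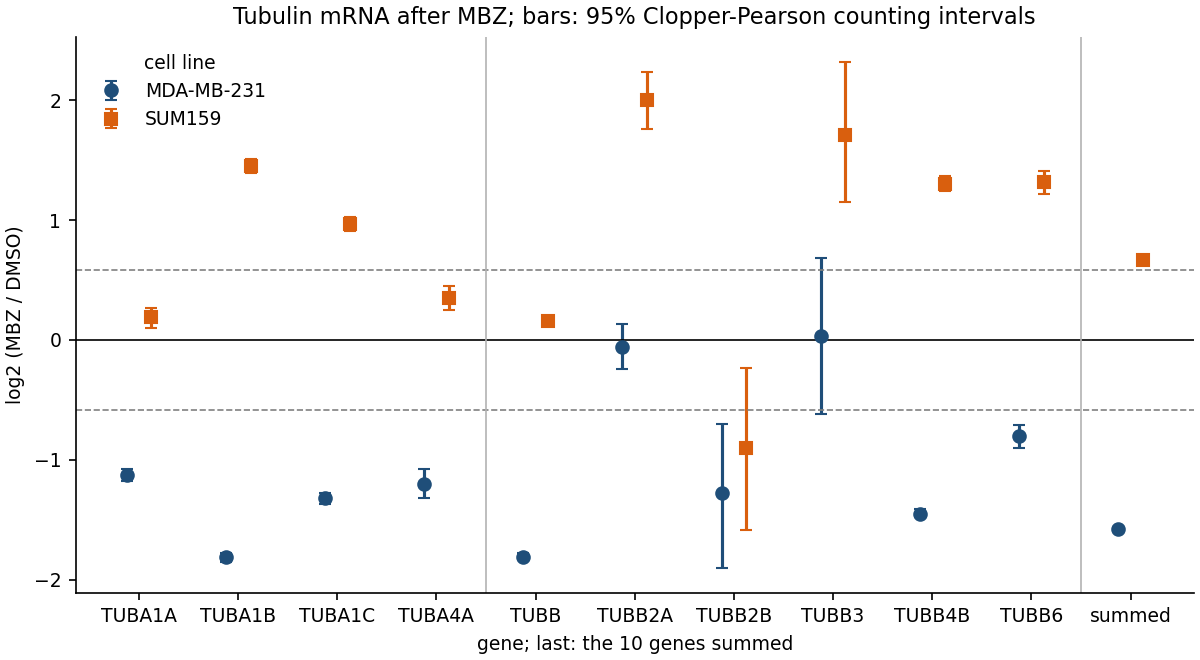
Log2 fold change of MBZ over DMSO for each tubulin gene and for the 10 summed, in MDA-MB-231 (circles) and SUM159 (squares), with 95% Clopper-Pearson counting intervals. Dashed lines mark a fold of 1.5. The summed values are -1.58 and 0.67, and TUBB2B is below 0 in both lines.

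Several of these genes are near copies of each other, which limits how well reads can be assigned. Of the 100-base windows of the canonical transcript, 54.6% in TUBB2A, 48.7% in TUBB2B, 36.9% in TUBA1B, 21.0% in TUBA1A and 12.1% in TUBA1C had an exact copy elsewhere in the genome, against 5.42% in TUBB, 5.35% in TUBB3, 3.01% in TUBB4B and 0 in TUBA4A and TUBB6. TUBB2A (chr6:3153497-3157544, minus strand) and TUBB2B (chr6:3223324-3231730, minus strand) shared 814 windows, and TUBA1B (chr12:49127782-49131397, minus strand) and TUBA1C (chr12:49188736-49274600, plus strand) shared 284. The single values of these copied genes are therefore uncertain. Of the 1706 bases of the canonical TUBB3 transcript, 1584 (92.8%) also lie in exons of the same-strand gene ENSG00000198211, which is in the count table with 0 counts in each library. The union mode of counting leaves out reads that fall in exons of both genes, so most TUBB3 reads may be missing and its counts do not give its level. On the opposite strand, exons of TUBA1B-AS1 (0 to 2 counts) cover 72.6% of the canonical transcript of TUBA1B, STK16 (741 to 1090.0 counts) 30.6% of that of TUBA4A, ENSG00000258232 (0 to 3) 23.6% of that of TUBA1C, ENSG00000272540 (0 to 4) 21.4% of that of TUBB, FAM166A (0 to 3) 7.93% of that of TUBB4B and TUBA1C 6.22% of that of TUBA1A. AFG3L2 and PSMG4 overlap 837 and 174 exonic bases of TUBB6 and TUBB2B, of which 0 are in the canonical transcripts. Since the strand setting of the counting is not given in the sources used here, reads in such overlaps may have been left out or not separated, and levels compared between genes carry that limit.

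Levels were compared between genes per kilobase of the canonical transcript. On that scale TUBB was the highest of the 10 in all 4 libraries, at 1027, 297, 342 and 383 CPM per kilobase in MDA-MB-231 DMSO, MDA-MB-231 MBZ, SUM159 DMSO and SUM159 MBZ. The next 2 places were held by TUBA1B, at 776, 223.5, 102 and 277, and TUBB4B, at 749, 278, 110.2 and 272. TUBB2B was at 0.807 to 2.17, and TUBB3 is not placed because most of its reads may be missing. When the length was reduced to the part without an exact copy, TUBA1B came to 1231, 354, 161 and 439 CPM per kilobase and TUBB to 1086, 314, 362 and 405, so that TUBA1B was then above TUBB in 3 libraries and below it in SUM159 DMSO.

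The composition of the tubulin reads also changed, and unlike the level it moved partly the same way in both lines. TUBB supplied 40.3% (40.1 to 40.6) of the tubulin reads in MDA-MB-231 DMSO and 34.4% (33.9 to 34.9) in MDA-MB-231 MBZ, and 51.4% (50.9 to 52.0) in SUM159 DMSO and 36.1% (35.7 to 36.5) in SUM159 MBZ. Its share was smaller with MBZ in each line, with intervals that lay apart. A share also depends on the other tubulin genes: in SUM159 the TUBB share was smaller although its log2 fold change was 0.16. The share was larger with MBZ in both lines for 5 genes, TUBA1C, TUBB2A, TUBB3 (most of whose reads may be missing), TUBB4B and TUBB6. Among them TUBB6 went from 1.95% to 3.33% in MDA-MB-231 and from 4.13% to 6.44% in SUM159, and TUBB2A from 0.353% to 1.01% and from 0.642% to 1.60%. At this depth share intervals lay apart for every gene in both lines, except TUBB2B in MDA-MB-231. The number of genes is therefore not read as a result. A larger share was not a higher level in MDA-MB-231: log2 fold changes there were -1.45 for TUBB4B, -1.32 for TUBA1C and -0.80 for TUBB6. TUBB2A (-0.06) and TUBB3 (0.03) had intervals that included 0, and TUBB and TUBA1B were both at -1.81. The lines differed for TUBA1B, whose share went from 19.7% to 16.7% in MDA-MB-231 and from 9.88% to 16.9% in SUM159. TUBA1A and TUBA4A had larger shares with MBZ in MDA-MB-231 and smaller ones in SUM159, while for TUBB2B the intervals overlapped in MDA-MB-231 and its share was smaller in SUM159.

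The percentage of tubulin reads that changed isotype is the sum of the increases in share from one library to another. It was 8.91% (8.37 to 9.45) between DMSO and MBZ in MDA-MB-231 and 18.6% (17.8 to 19.3) in SUM159. Joining TUBA1A with TUBA1B and TUBA1C, and TUBB2A with TUBB2B, lowered these to 5.93% and 16.4%. Between the lines, the percentage was 17.8% (17.3 to 18.3) in the DMSO libraries and 8.43% (7.87 to 8.98) in the MBZ libraries, so the isotype mixtures of the lines lay closer together with MBZ. Beta reads per alpha read were 1.56, 1.43, 2.01 and 1.52 in MDA-MB-231 DMSO, MDA-MB-231 MBZ, SUM159 DMSO and SUM159 MBZ, and TUBB reads per TUBA1B read were 2.04, 2.05, 5.20 and 2.14. SUM159 DMSO stood apart from the other 3 libraries in both ratios.

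**Figure D3:**
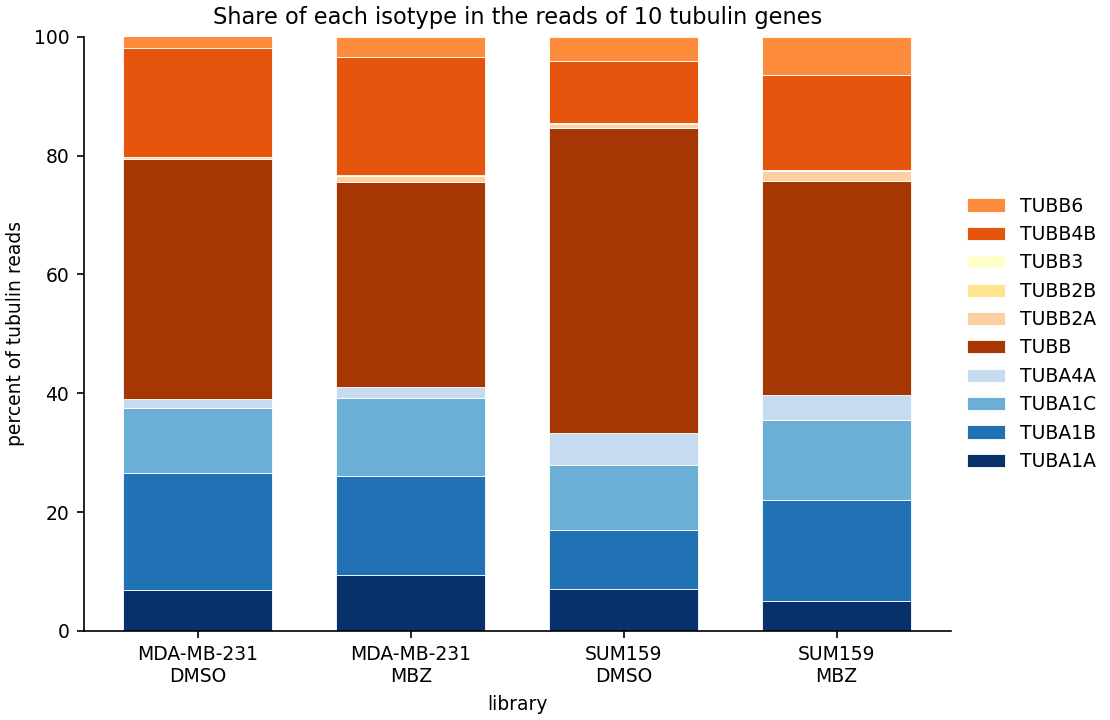
Share of each isotype in the reads of the 10 tubulin genes, as a percentage of tubulin reads in each library, with alpha genes in blue and beta genes in orange and brown. TUBB takes 51.4% in SUM159 DMSO and 34.4% to 40.3% in the other 3 libraries.

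A change alike in both lines was tested with edgeR's quasi-likelihood test, in which the lines stood in for replicates and 1 residual degree of freedom was left. Of the 10 tubulin genes 0 passed a Benjamini-Hochberg adjusted p of 0.05, against 0.00621% of 16100 genes fitted, and 0 had an unadjusted p under 0.05, against 7.14%. DESeq2's Wald test also called 0 of the 10, against 0.706% of the 13603 genes with an adjusted p, with 0 at an unadjusted p under 0.05, against 5.53%. TUBB2A had the lowest adjusted p in the edgeR quasi-likelihood test with Benjamini-Hochberg adjustment, 0.730 at a shared log2 fold change of 1.00 (SE 0.53), and 0.418 to 1.00 over the other settings. TUBB had a shared log2 fold change of -0.78 (SE 0.60) and an adjusted p of 0.818 in the same edgeR test (0.761 to 1.00). The test asks for a change shared by the lines. Of the 10 genes, 4 were at least 1.5-fold lower in MDA-MB-231 and 1.5-fold higher in SUM159, against 3.12% of 13733 genes.

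The other genes of the tubulin pathway were counted by list with the same fold, for which the shares over all genes were 15.8% lower and 18.3% higher in MDA-MB-231 and 21.7% lower and 21.5% higher in SUM159. Of 10 further alpha and beta tubulin genes, 1, TUBA3D, had enough counts to compare and was within a fold of 1.5 in both lines. TUBG1, the gamma tubulin that nucleates microtubules, had 3908, 2013, 726 and 2174 counts in the 4 libraries, and its log2 fold changes of -0.68 and 1.27 had the directions of the summed alpha and beta genes. Of the 4 gamma, delta and epsilon genes, 1 was lower and 1 higher in MDA-MB-231, and 0 lower and 1 higher in SUM159. Of 22 genes that fold tubulin, including the CCT chaperonin and prefoldin, 2 were lower and 0 higher in MDA-MB-231, and 2 lower and 4 higher in SUM159, with median log2 fold changes of -0.10 and 0.20. The cofactor TBCD, which helps to join alpha and beta tubulin, was among the lower ones in each line at log2 -1.02 and -0.62, and the chaperonin subunit CCT3, the most abundant in 3 of the libraries (CCT5 in SUM159 MBZ), had log2 fold changes of -0.29 and 0.09.

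The genes of mRNA autoregulation, TTC5, SCAPER, CNOT1 and CNOT11, gave 0 of 4 past the fold in either direction in either line. TTC5 had 554, 422, 219 and 213 counts, with log2 fold changes of -0.12 (-0.31 to 0.07) in MDA-MB-231 and -0.36 (-0.64 to -0.08) in SUM159. Of 19 tubulin-modifying enzymes compared, 5 were lower and 2 higher in MDA-MB-231, and 4 lower and 3 higher in SUM159, against the shares over all genes given above. VASH1, which removes the terminal tyrosine of alpha tubulin, was lower in both at log2 -1.04 and -1.83. Of 22 microtubule-associated genes, 5 were lower and 1 higher in MDA-MB-231 and 3 lower and 2 higher in SUM159, among them STMN1, which binds free dimers, at log2 -1.11 and 0.93. MAP2, which stabilizes microtubules in dendrites, was at log2 -0.73 and -2.14.

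Proliferation genes were counted in the same way. Of 25, 22 were at least 1.5-fold lower and 0 higher with MBZ in MDA-MB-231 (median log2 -1.01), and 0 lower and 23 higher in SUM159 (median 2.06). Their summed level was 6028 CPM in MDA-MB-231 DMSO, 3191 in MDA-MB-231 MBZ, 785 in SUM159 DMSO and 2928 in SUM159 MBZ. This is the order of the summed tubulin level except that the MBZ libraries change places. The most abundant were MKI67 in MDA-MB-231 DMSO (701 CPM), TPX2 in MDA-MB-231 MBZ (333 CPM), MCM3 in SUM159 DMSO (115 CPM) and CCNB1 in SUM159 MBZ (321 CPM), and no gene of the list was at 0 in any library. The paper reports that MBZ slowed the growth of both lines and raised cyclin B1 protein in both, which it reads as a G2/M arrest. Higher RNA of these genes is thus not read here as faster growth. The part of proliferation in the tubulin values was not tested.

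**Figure D4:**
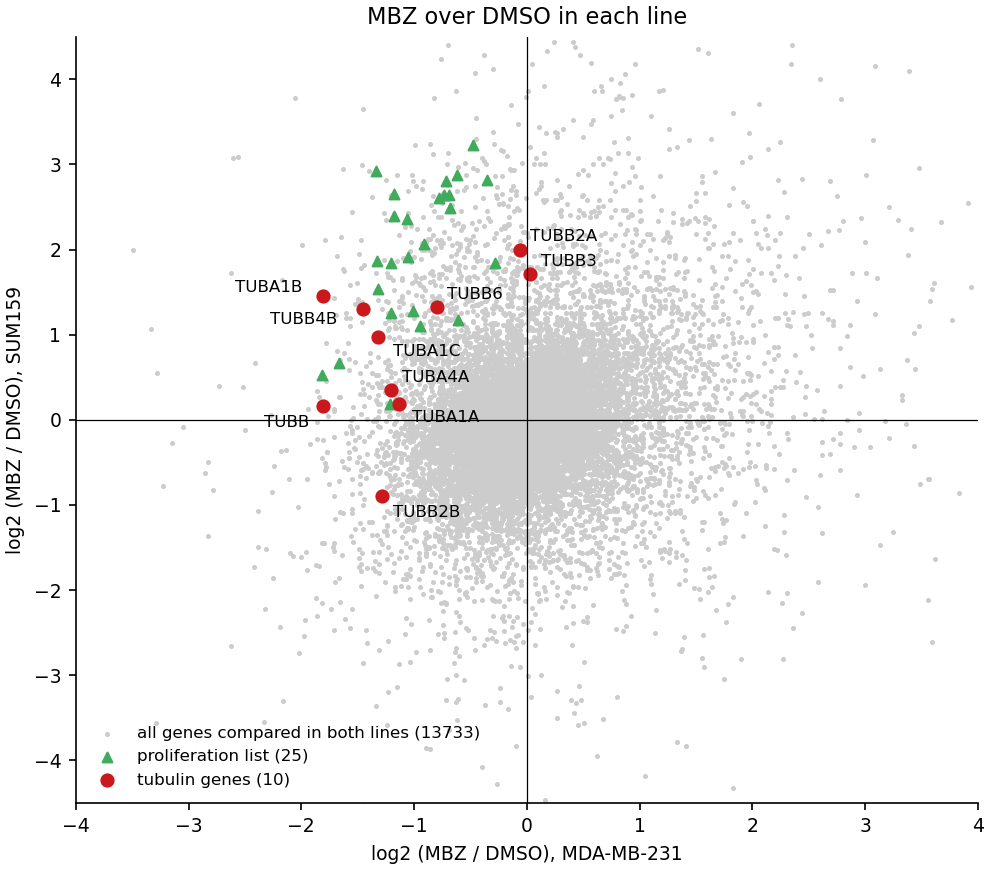
Log2 fold change of MBZ over DMSO in SUM159 against that in MDA-MB-231 for 13643 genes compared in both lines (grey, a further 90.0 lie outside the axes), the 25 proliferation genes (triangles) and the 10 tubulin genes (circles). TUBA1B, TUBA1C, TUBB4B and TUBB6 lie at the upper left, with SUM159 values below the proliferation median of 2.06. TUBB lies near 0 on the vertical axis.

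The genes whose values were most like the summed tubulin level were found by Euclidean distance over 3 log2 ratios, MBZ over DMSO in each line and SUM159 over MDA-MB-231 in DMSO, among 11144 genes that averaged 100 counts or more. They were WDR76 (distance 0.173), HMGA1 (0.302), MCM6 (0.306), ZNF488 (0.376) and PGAM1 (0.390), where the median distance was 2.71. WDR76 had 1032, 267, 182 and 397 counts in the 4 libraries. HMGA1, a chromatin protein, had 87073, 28803, 16946 and 30389 counts. Both were highest in MDA-MB-231 DMSO and lowest in SUM159 DMSO, as was MCM6, a subunit of the replicative helicase, with 3141, 933, 699 and 1274 counts.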

How the data were processed

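Poly-A mRNA of the 4 cultures was sequenced as paired reads. Per the labels and the paper, the authors mapped reads to GRCh38 with STAR 2.5 and counted them per gene with HTSeq 0.6.1 in union mode, and they deposited whole-number counts without normalization. The annotation release and strand setting are not given in the sources used here. Symbols were matched by Ensembl identifier for 58207 of 58735 genes, and gene models are those of GENCODE 44 on GRCh38.

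The edgeR 4.0.16 package (R 4.3.3) was used for fold changes, taken as MBZ minus DMSO on the log2 CPM scale. The prior count was 0.125, and TMM factors were estimated from the pair of libraries compared. Levels, ratios between lines and the distances to the nearest genes used TMM over all 4. Genes averaging under 10 counts in the pair were left out of the counts by fold. Intervals for counts and shares are Clopper-Pearson, and those for the percentage that changed isotype come from the multinomial counting variance. Since the libraries were amplified without molecular identifiers, reads are not independent molecules. The shared test used edgeR's quasi-likelihood fit with line and treatment, filterByExpr and Benjamini-Hochberg adjustment over all genes fitted, with a common biological coefficient of variation of 0.323. Its spread comes from how the change with MBZ differed between the lines, and not from their difference in level.

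Alternatives were TMM over all 4 libraries, DESeq2 1.42.0 size factors, total counts, a prior count of 2, a fold of 2, an interval away from 0 in place of the fold, other count minimums, other isotype denominators and, for the shared test, DESeq2's Wald test, RLE normalization, no filter and no line term. The genes named are the 10 tubulin genes, genes of the lists and the 5 nearest genes. Members and lists were chosen with earlier results of these data known. Functions were tested on simulated counts.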

Additional observations from a re-analysis of the deposited data

Results flagged for a closer look

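The tubulin genes below had log2 fold changes of opposite sign in the lines, with each counting interval away from 0. With 1 library per condition the difference was not tested. In SUM159, TUBB (log2 0.16), TUBA1A (0.19) and TUBA4A (0.35) were under a fold of 1.5. Scaling by total counts moved the median of all genes in that line by 0.30. The list has no share over all genes beside it, so the number of genes is not read as a result. As log2 fold change in SUM159 minus that in MDA-MB-231, the difference was 3.26 for TUBA1B, 2.30 for TUBA1C, 1.55 for TUBA4A and 1.32 for TUBA1A. Among the beta genes it was 2.75 for TUBB4B, 2.12 for TUBB6 and 1.97 for TUBB. For the 10 genes summed it was 2.25. All of these use SUM159 DMSO, the library with the lowest summed level of tubulin and of proliferation genes.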

How the results depend on the processing

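The counts of tubulin genes past the fold, 8 in MDA-MB-231 and 6 in SUM159, were 7 to 8 and 5 to 7 over the alternatives that kept a fold. An interval away from 0 in place of the fold gave 8 and 9 in those directions. These have no share over all genes beside them, so they are not read as a result. Such an interval takes in changes as small as log2 0.16, for TUBB in SUM159. Of 80 alternative fold changes of single tubulin genes, 60 stayed within the counting interval, 20 moved outside it and 0 of those with an interval away from 0 changed sign. The summed log2 fold change in MDA-MB-231 was -1.56 with TMM over all 4 libraries, -1.63 with DESeq2 size factors and -1.31 with total counts, and in SUM159 it was 0.98 with total counts. The percentage of reads that changed isotype was 8.31 in MDA-MB-231 per kilobase of exon, and 5.93 in MDA-MB-231 and 16.4 in SUM159 with near-identical genes joined. In SUM159 it was 19.3 per kilobase of canonical transcript and 19.7 per kilobase without an exact copy, both chosen after seeing the data. Total counts and DESeq2 size factors for the ratio between lines in DMSO were also chosen then. That ratio kept its sign for all 10 genes, but the interval of TUBB3 (log2 -0.03, -0.73 to 0.65) included 0, so its sign is not read. Unadjusted p-values under 0.05 were found for 2 tubulin genes, TUBB and TUBB2A, when every gene with at least 1 count was fitted, as for 6.14% of 32295 genes. Over all genes, the shared test called 1 with edgeR's main settings (1 higher, 0 lower), 41 higher and 55 lower with DESeq2, and 153 higher and 145 lower with every gene with at least 1 count, and the cause was not tested. DESeq2 gave no adjusted p for 2497 genes, which were left out of its share of genes called. No paired analysis was possible within a line because each condition had 1 library; the shared test pairs libraries by its line term. The counts of TUBB2B and TUBB3, 131 or fewer, set wide intervals.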
